A study of Mus musculus with 8 samples.

Results

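Glutathione synthesis, peroxide reduction, radical trapping and polyunsaturated lipid supply decide how well a cell resists ferroptosis, and 10 genes of these steps were followed in naive T cells with and without Trappc1. They were taken by symbol from the gene table of every library, namely Slc7a11, Slc3a2, Gclc, Gclm, Gss, Gpx4, Aifm2, Dhodh, Acsl4 and Lpcat3, out of 23337 symbols listed. Of the 10 genes, 9 averaged at least 1 TPM over the 8 libraries and were tested along with 11786 genes in all, while Aifm2 fell below that level and is described only. TPM is a transcript abundance scaled for gene length and library total, so levels of different genes can be set side by side.

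The series compared naive T cells, sorted as CD62L+ and CD44low, from mLNs (lymph nodes) and spleens of mice that were 4 weeks old. The title of every library labels it as fresh. There were 4 groups of 2 libraries: CD4 KO, CD4 WT, CD8 KO and CD8 WT. KO mice carried a conditional Trappc1 knockout driven by CD4-cre, a Cre recombinase that acts in developing T cells and so in CD4 and CD8 cells alike, and WT mice were wild type. The sources used here name neither the strain nor the deleted part of Trappc1, nor whether WT mice carried Cre or the target sites. They do not say that the replicates of a group were different mice either, and a p-value here reflects library-to-library spread that could be technical only.

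Ferroptosis is an iron-dependent death in which peroxides build up in polyunsaturated membrane lipids. The transporter system Xc-, made of SLC7A11 and SLC3A2, brings in cystine for glutathione, glutamate-cysteine ligase and glutathione synthetase make glutathione, and the selenoprotein GPX4 uses it to reduce lipid peroxides. FSP1 (encoded by Aifm2) and DHODH trap radicals through coenzyme Q, whereas ACSL4 and LPCAT3 load polyunsaturated fatty acids into phospholipids and so raise sensitivity. In mice, T cells that lack Gpx4 fail to persist in the periphery.

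The libraries held 3.03 to 4.01 gigabases of aligned sequence, estimated from the deposited coverage. Cd4 stood at 543 to 764 TPM in the CD4 libraries and at 0 to 14.5 TPM in the CD8 libraries, and Cd8a at 163 to 548 TPM in the CD8 libraries and at 1.28 to 4.10 TPM in the CD4 libraries. CD8 WT replicate 2 stood apart. Its 11 erythroid marker genes summed to 92390 TPM and its 18 myeloid markers to 30245 TPM, against at most 2224 and 2294 TPM in the other 7 libraries, and its 14 T cell markers summed to 8181 TPM against at least 12361. The CD8 differences of the 9 tested genes are therefore given with and without it. Trappc1 itself stood at 30.5 and 32.8 TPM in CD4 KO against 78.7 and 55.0 TPM in CD4 WT, and at 56.9 and 45.6 TPM in CD8 KO against 81.2 and 40.3 TPM in CD8 WT. Its differences did not pass the test (limma, adjusted p = 0.235 in CD4 and 0.869 in CD8), its level in CD8 WT replicate 2 was under that of either CD8 KO library, which goes against the label, and a value per gene cannot check the deleted part.

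Gpx4, the glutathione peroxidase that detoxifies lipid peroxides, was the most abundant of the 10 genes and was higher in every KO library than in every WT library. Its level was 257 and 202 TPM in CD4 KO against 134 and 139 TPM in CD4 WT. In CD8 cells it stood at 257 and 274 TPM in CD8 KO against 161 and 92.5 TPM in CD8 WT. The groups did not overlap in either cell type, and the mean depth per base behind these values was 98.3 to 280.

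The Gpx4 difference on the log2(TPM + 1) scale was 0.73 ± 0.33 in CD4 cells (SE; limma, adjusted p = 0.299) and 1.11 ± 0.33 in CD8 cells (adjusted p = 0.191). The mean of the CD4 and CD8 differences was 0.92 ± 0.23, with a 95% interval of 0.41 to 1.44, and missed the threshold of 0.05 (limma, adjusted p = 0.0560). It passed with median-of-ratios scaling (limma, adjusted p = 0.0208), with library weights (0.0429) and on FPKM (0.0369). For this mean, 755, 446 and 606 genes passed in those fits, against 485 in the main fit. Without CD8 WT replicate 2 the Gpx4 mean was 0.72, and without CD8 WT replicate 1 it was 1.12. Each of these fits leaves 1 CD8 WT library, so their p-values are not given here. The fit without replicate 1 keeps the library that stood apart as the only CD8 WT sample. The Gpx4 mean did not pass in the other 12 alternatives, with adjusted p from 0.0506 to 0.159 where all 8 libraries were used. In CD8 cells alone the difference was 0.71 without CD8 WT replicate 2 and 1.51 without CD8 WT replicate 1. The difference between the CD8 and the CD4 effect was 0.38, with a 95% interval of -0.65 to 1.41 (adjusted p = 0.832).

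Gpx4 is also the shortest of the 10 genes in the genome, with a span of 2.93 kb (chromosome 10, 80053510 to 80056439, plus strand, mm10, as the files give it). Differences moved with gene span across all tested genes. In the 3623 genes under 10 kb the median log2 difference was 0.17 in CD4 and 0.30 in CD8 cells, and in the 3075 genes of 30 to 100 kb it was -0.47 in CD4 and -0.19 in CD8 cells. With the trend against span removed, the Gpx4 difference was 0.47 in CD4 and 0.93 in CD8 cells, and their mean was 0.70 (adjusted p = 0.159).

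**Figure D1:**
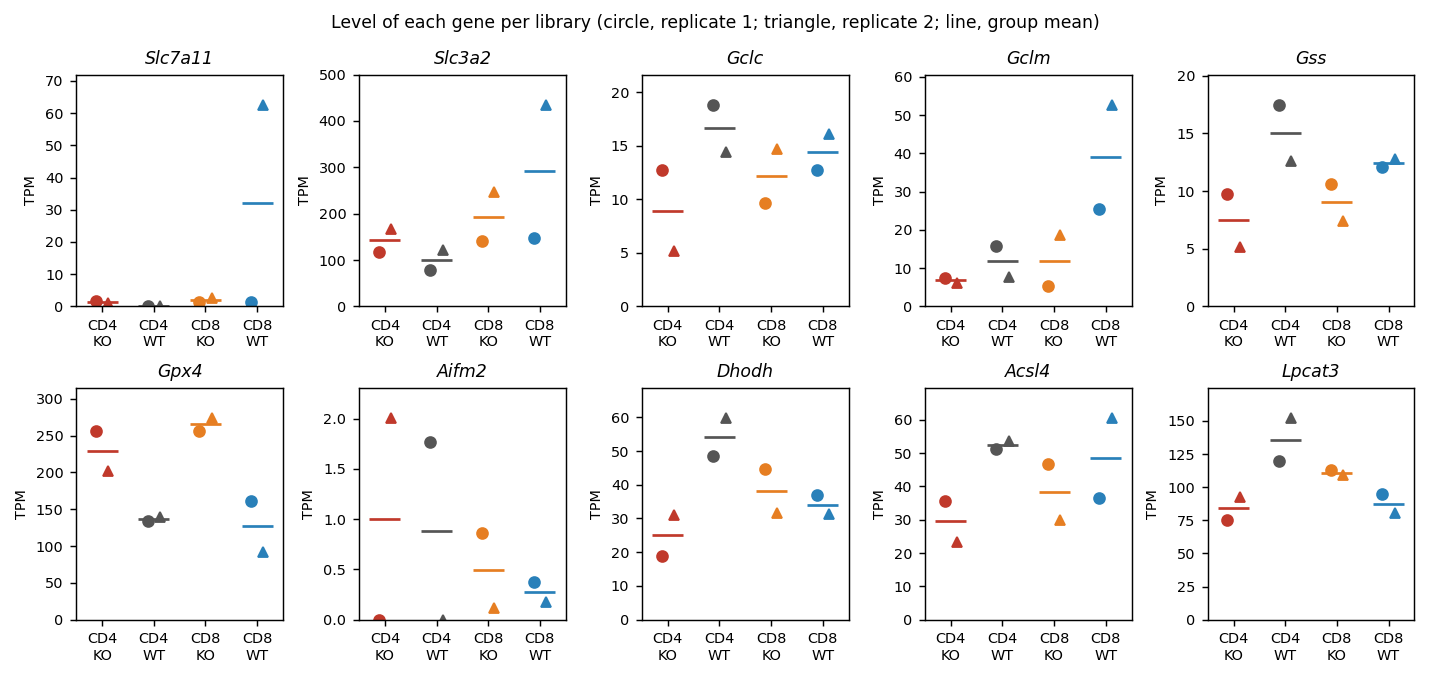
Level in TPM (vertical axes from 0, a scale for each gene) in the CD4 KO, CD4 WT, CD8 KO and CD8 WT libraries. Circles are replicate 1, triangles replicate 2 and lines the group means. All 4 KO libraries lie above all 4 WT libraries for Gpx4, at 202 to 274 TPM against 92.5 to 161 TPM, and CD8 WT replicate 2 is the highest library for Slc7a11, Slc3a2, Gclm and Acsl4.

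Of the 9151 genes averaging at least 5 TPM, the closest to Gpx4 over the 8 libraries on the log2 scale were Ctns (Pearson's r = 0.983), Psma4 (0.983) and Polr2d (0.977). Ctns encodes the exporter of cystine from lysosomes, Psma4 a proteasome subunit and Polr2d a subunit of RNA polymerase II. Ctns stood at 74.1 and 59.9 TPM in CD4 KO against 37.3 and 36.5 TPM in CD4 WT, and at 90.9 and 82.0 TPM in CD8 KO against 52.4 and 20.1 TPM in CD8 WT. These correlations are descriptions over 8 libraries that share 4 groups.

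After Gpx4, which averaged 190 TPM over the 8 libraries, came Slc3a2 at 182, Lpcat3 at 105, Acsl4 at 42.2, Dhodh at 37.9, Gclm at 17.4, Gclc at 13.1, Gss at 10.99, Slc7a11 at 8.88 and Aifm2 at 0.664 TPM. Gpx4 exceeded Slc3a2 in 7 of 8 libraries. Acsl4 exceeded Dhodh in 4 of 8 and Gclm exceeded Gclc in 4 of 8, so these neighbours were not set apart. Gclc exceeded Gss in 7 of 8 libraries, but their ranges met in all 4 groups. The mean of Slc7a11 rests on CD8 WT replicate 2, without which it averaged 1.21 TPM. Its place did not change, as Gss then averaged 10.7 TPM and Aifm2 0.733 TPM. Without that library Gclm averaged 12.4 TPM and Gclc 12.6 TPM, so their order turned.

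Transcripts of the cystine transporter genes were very uneven, with Slc3a2 well expressed and Slc7a11 near the floor of detection outside CD8 WT replicate 2. These levels do not give the make-up of the transporter, as the heavy chain also partners other transporters. Slc7a11, the light chain that carries cystine, stood at 1.72 and 1.12 TPM in CD4 KO against 0.0883 and 0.0983 TPM in CD4 WT. In CD8 cells it stood at 1.37 and 2.72 TPM in CD8 KO against 1.34 and 62.6 TPM in CD8 WT. The CD4 groups did not overlap, and CD8 WT replicate 2 was 46.8 times as high as its replicate. The mean depth per base was 0.130 in both CD4 WT libraries and 1.44 to 4.11 in the others apart from CD8 WT replicate 2, so the CD4 contrast rests on few reads.

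The Slc7a11 difference was 1.14 ± 1.25 in CD4 cells (limma, adjusted p = 0.682), with a 95% interval of -1.66 to 3.94. In CD8 cells it was -2.04 ± 1.25 (limma, adjusted p = 0.463). It turned to 0.34 without CD8 WT replicate 2 and was -4.42 without CD8 WT replicate 1. The latter fit keeps the library that stood apart as its only CD8 WT sample. Slc7a11 lies on chromosome 3 (50364936 to 50443613, minus strand, mm10).

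Slc7a11 transcription is known to respond to ATF4, a factor of the amino acid response, and to NFE2L2 (NRF2), which also drives Gclm. The 250 bases before the RefSeq start of both genes are shown because, among the genes with a window, these are the ones that held a searched motif. Both stood highest in CD8 WT replicate 2, as did Slc3a2 and Acsl4, which held none. The letters searched were TGATGNAA, the core of the amino acid response element, and TGACNNNGC, the core of the antioxidant response element, on both strands, with N for any base and with no overlap between the matches. Of 32851 such RefSeq windows of GRCm38.p6, 3.45% held the first and 10.2% the second. Windows were found for 8 of the 10 genes, and Gclc and Dhodh had none, so they were not searched. Among the 8 genes searched, the first motif was present in Slc7a11 alone and the second in Gclm alone. Capitals mark the matches in Slc7a11 (chr3:50443614-50443863, minus strand) and in Gclm (chr3:122245307-122245556, plus strand), each written 5′ to 3′.
Slc7a11: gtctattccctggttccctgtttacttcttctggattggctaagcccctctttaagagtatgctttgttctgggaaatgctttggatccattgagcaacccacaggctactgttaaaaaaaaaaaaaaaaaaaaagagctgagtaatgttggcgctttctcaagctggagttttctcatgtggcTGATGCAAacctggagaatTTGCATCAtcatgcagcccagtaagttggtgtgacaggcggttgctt
Gclm: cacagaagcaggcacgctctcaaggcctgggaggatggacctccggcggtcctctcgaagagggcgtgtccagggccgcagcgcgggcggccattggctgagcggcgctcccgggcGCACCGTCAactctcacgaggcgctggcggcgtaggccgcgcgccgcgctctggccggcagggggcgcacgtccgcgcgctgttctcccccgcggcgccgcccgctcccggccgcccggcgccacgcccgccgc
The Slc7a11 window held 2 matches on opposite strands, beginning 66 and 47 bases before the start, and 0.0396% of all windows held 2 or more. The Gclm match began 134 bases before the start. These matches describe letters only and are not evidence of binding.

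Slc3a2, the heavy chain that also partners other amino acid transporters, stood at 118 and 167 TPM in CD4 KO against 79.0 and 123 TPM in CD4 WT. It stood at 141 and 246 TPM in CD8 KO against 148 and 435 TPM in CD8 WT. The groups overlapped in both cell types. The differences were 0.51 ± 0.51 in CD4 (limma, adjusted p = 0.648) and -0.45 ± 0.51 in CD8 cells (adjusted p = 0.692), and the CD8 value was 0.33 without CD8 WT replicate 2.

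Beside these values, the 18 myeloid markers summed to 1389 and 2294 TPM in CD4 KO against 286 and 90.0 TPM in CD4 WT, and to 1209 and 1624 TPM in CD8 KO against 681 and 30245 TPM in CD8 WT. Lyz1 was listed at 0 in 3 of the 4 KO libraries (both CD8 KO libraries and CD4 KO replicate 1) and in both CD4 WT libraries, while Lyz2 stood at 631 and 926 TPM in CD4 KO against 86.9 and 49.0 TPM in CD4 WT. The myeloid sums and Slc7a11 were both higher in CD4 KO than in CD4 WT and both highest in CD8 WT replicate 2. The 12 B cell markers summed to 5598 to 6223 TPM in CD4 KO against 9585 to 12213 TPM in CD4 WT, and to 1662 to 2208 TPM in CD8 KO against 1428 and 17896 TPM in CD8 WT. The part of other cells in the Slc7a11, Slc3a2 and Gclm values was not tested.

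**Figure D2:**
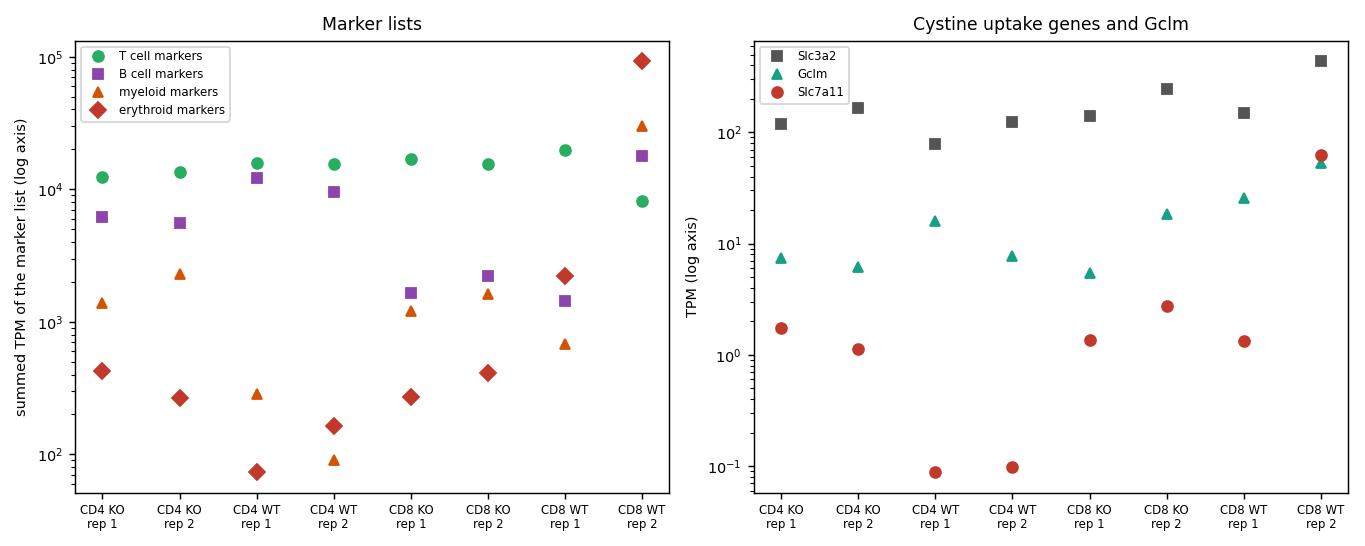
Left, summed TPM of the T cell, B cell, myeloid and erythroid marker lists per library on a log axis. Right, TPM of Slc3a2, Gclm and Slc7a11 in the same libraries on a log axis. In CD8 WT replicate 2 the erythroid sum reaches 92390 TPM and Slc7a11 reaches 62.6 TPM, against at most 2.72 TPM in the other libraries.

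The 3 genes of glutathione synthesis had lower group means in KO cells of both types, and none passed the test. Gclc, the catalytic subunit of glutamate-cysteine ligase and the rate-limiting enzyme, stood at 12.7 and 5.19 TPM in CD4 KO against 18.8 and 14.5 TPM in CD4 WT. It stood at 9.65 and 14.7 TPM in CD8 KO against 12.7 and 16.1 TPM in CD8 WT. The CD4 groups did not overlap and the CD8 groups did. The differences were -0.93 ± 0.52 in CD4 (limma, adjusted p = 0.408) and -0.25 ± 0.52 in CD8 cells (adjusted p = 0.843). Gclc spans 39.95 kb, and with the span trend removed the values were -0.59 in CD4 and -0.06 in CD8 cells.

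Gclm, the modifier subunit that raises the affinity of the ligase for glutamate, stood at 7.46 and 6.09 TPM in CD4 KO against 15.8 and 7.78 TPM in CD4 WT. It stood at 5.40 and 18.5 TPM in CD8 KO against 25.5 and 52.7 TPM in CD8 WT. Neither pair of groups overlapped. The difference was -0.65 ± 0.64 in CD4 cells (limma, adjusted p = 0.642) and -1.76 ± 0.64 in CD8 cells, with a 95% interval of -3.19 to -0.32 (adjusted p = 0.252), and the CD8 value was -1.25 without CD8 WT replicate 2 (adjusted p = 0.471). The mean over both cell types was -1.20 ± 0.45 (adjusted p = 0.155). With the span trend removed (Gclm spans 21.1 kb) the values were -0.59 in CD4 and -1.77 in CD8 cells.

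Gss, the synthetase that adds glycine to complete glutathione, stood at 9.79 and 5.12 TPM in CD4 KO against 17.5 and 12.6 TPM in CD4 WT. It stood at 10.6 and 7.40 TPM in CD8 KO against 12.1 and 12.8 TPM in CD8 WT. All 4 KO libraries lay below all 4 WT libraries. The difference was -0.96 ± 0.50 in CD4 (limma, adjusted p = 0.369) and -0.44 ± 0.50 in CD8 cells (adjusted p = 0.689). The mean was -0.70 ± 0.35 (adjusted p = 0.274). With the span trend removed (Gss spans 29.5 kb) the values were -0.78 in CD4 and -0.36 in CD8 cells.

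Of the coenzyme Q genes, Dhodh averaged 37.9 TPM and Aifm2 0.664 TPM over the 8 libraries. Aifm2, whose product FSP1 regenerates coenzyme Q at the plasma membrane, was listed at 0 in CD4 KO replicate 1 and in CD4 WT replicate 2. It stood at 2.01 TPM for CD4 KO replicate 2 against 1.76 TPM for CD4 WT replicate 1, and at 0.866 and 0.117 TPM in CD8 KO against 0.376 and 0.180 TPM in CD8 WT. The mean depth per base was at most 0.953 in any library, so no order of the groups can be read.

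Dhodh, the mitochondrial pyrimidine synthesis enzyme that reduces coenzyme Q, stood at 18.8 and 31.1 TPM in CD4 KO against 48.5 and 59.8 TPM in CD4 WT. It stood at 44.8 and 31.7 TPM in CD8 KO against 36.9 and 31.2 TPM in CD8 WT. The CD4 groups did not overlap and the CD8 groups did. The CD4 difference of -1.12 ± 0.39 did not pass (95% interval -1.99 to -0.25; limma, adjusted p = 0.191), and the CD8 difference was 0.15 ± 0.39 (adjusted p = 0.876). Its span is 15.4 kb, and with the span trend removed the CD4 difference was -1.15 (adjusted p = 0.292). The CD8 effect exceeded the CD4 effect by 1.27, with a 95% interval of 0.04 to 2.50, which did not pass either (adjusted p = 0.701).

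Both lipid genes had lower levels in the CD4 KO libraries than in the CD4 WT libraries, and neither passed the test. Acsl4, which activates arachidonic and adrenic acid to their coenzyme A esters, stood at 35.8 and 23.3 TPM in CD4 KO against 51.2 and 53.7 TPM in CD4 WT. It stood at 46.8 and 29.8 TPM in CD8 KO against 36.6 and 60.5 TPM in CD8 WT, where the groups overlapped. The differences were -0.84 ± 0.41 in CD4 (limma, adjusted p = 0.336) and -0.33 ± 0.41 in CD8 cells (adjusted p = 0.722). Acsl4 spans 72.5 kb, and with the span trend removed the values were -0.19 in CD4 and 0.09 in CD8 cells. Without CD8 WT replicate 2 the CD8 value was 0.03.

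Lpcat3, the acyltransferase that inserts these fatty acids into phospholipids, stood at 75.6 and 92.7 TPM in CD4 KO against 119 and 152 TPM in CD4 WT. It stood at 113 and 109 TPM in CD8 KO against 94.6 and 80.5 TPM in CD8 WT. The groups did not overlap in either cell type, with KO lower in CD4 cells and higher in CD8 cells. The differences were -0.68 ± 0.30 in CD4 (limma, adjusted p = 0.287) and 0.34 ± 0.30 in CD8 cells (adjusted p = 0.598), and the CD8 effect exceeded the CD4 effect by 1.03, with a 95% interval of 0.09 to 1.96 (adjusted p = 0.701). With the span trend removed (Lpcat3 spans 41.6 kb) the CD4 difference was -0.33 and the CD8 difference 0.54. The end of Lpcat3 shares 347 bases with Emg1 on the other strand, which stood at 296 to 716 TPM, and the sources used here do not say whether reads were counted by strand.

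Over the 9 tested genes, 0 passed in CD4 cells (limma, 3 at an unadjusted p under 0.05), where 0.713% of all tested genes passed. Among all genes 16.7% had an unadjusted p under 0.05. For 8 of the 9 genes the KO range was clear of the WT range, with 2 higher and 6 lower in KO, against 58.1% of all genes, of which 21.7% were higher and 36.5% lower. The median log2 difference was -0.68, beside -0.16 over all tested genes, and median-of-ratios scaling moved the median of all genes to 0.03. In CD8 cells 0 of the 9 passed (limma, 2 at an unadjusted p under 0.05), where 0.297% of all genes passed and 15.1% had an unadjusted p under 0.05. Ranges were clear of each other for 4 of the 9, with 2 higher and 2 lower in KO, against 42.1% of all genes, of which 23% were higher and 19.1% lower. The CD8 median was -0.33, beside 0.05 over all genes. Without CD8 WT replicate 2 the CD8 differences not yet given were -0.09 for Gclc, -0.41 for Gss, 0.03 for Dhodh and 0.23 for Lpcat3, and none passed.

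For the mean of the CD4 and CD8 differences 0 of the 9 passed (limma, 2 at an unadjusted p under 0.05), where 4.12% of all genes passed and 22.6% had an unadjusted p under 0.05. All 4 KO libraries were clear of all 4 WT libraries for 2 of the 9, higher for Gpx4 and lower for Gss, against 13.3% of all genes, of which 5.57% were higher and 7.69% lower. The test of the difference between the CD8 and the CD4 effect called 0 of the 9 genes, with 2 at an unadjusted p under 0.05, and 0% of all genes. By limma, 819 genes had an unadjusted p under 0.05 there, which is 6.95%.

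**Figure D3:**
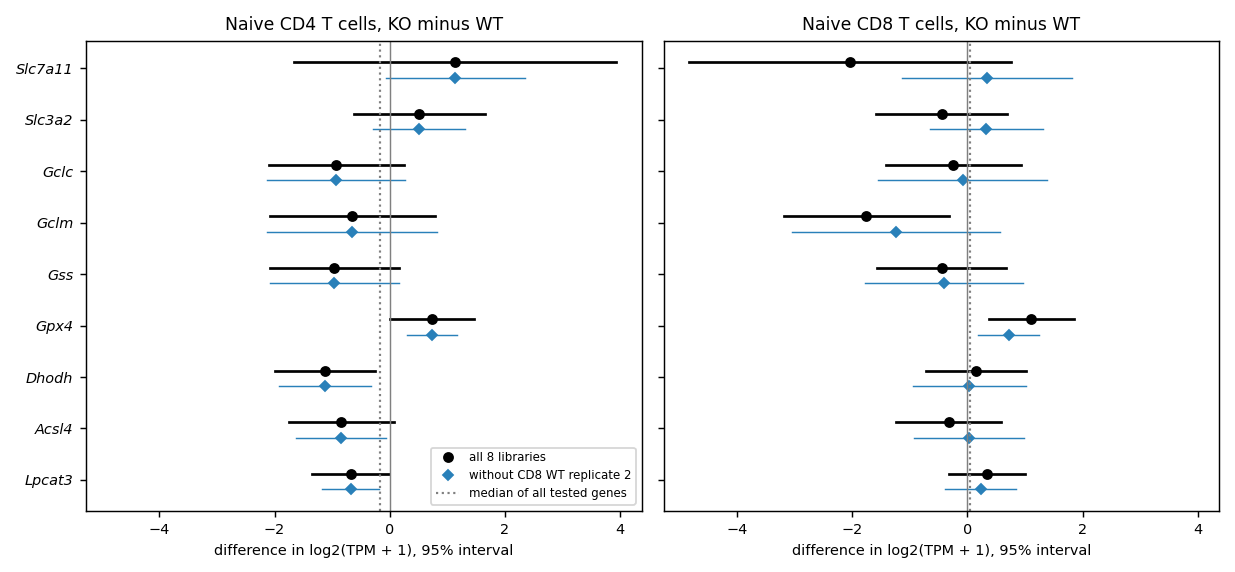
KO minus WT difference in log2(TPM + 1) with its 95% interval for the 9 tested genes, in CD4 (left) and CD8 cells (right). Black circles use all 8 libraries, blue diamonds leave out CD8 WT replicate 2, and the dotted line is the median of all tested genes. Gpx4 lies above 0 in both panels, at 0.73 and 1.11, and the CD8 value of Slc7a11 turns from -2.04 to 0.34 without that library.

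Between WT cell types 0 of the 9 genes passed (limma, 3 at an unadjusted p under 0.05), where 0.195% of all genes passed and 8.67% had an unadjusted p under 0.05. Ranges were clear of each other for 5 of the 9, with 3 higher and 2 lower in CD8 WT, against 34.3% of all genes, of which 9.53% were higher and 24.8% lower. Slc7a11 differed by 3.48 ± 1.25 between CD8 WT and CD4 WT (adjusted p = 0.50), Gclm by 1.63 ± 0.64 (adjusted p = 0.537) and Slc3a2 by 1.36 ± 0.51 (adjusted p = 0.524). Without CD8 WT replicate 2 these differences were 1.10 for Slc7a11 (adjusted p = 0.806), 1.12 for Gclm (adjusted p = 0.875) and 0.58 for Slc3a2 (adjusted p = 0.889). Without CD8 WT replicate 1 the Slc7a11 and Slc3a2 differences passed (5.86, adjusted p = 0.00328, and 2.13, adjusted p = 0.0207), which leaves the library that stood apart as the single CD8 WT sample.

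The other genes of these pathways were followed in 6 lists, given here without the 10 genes themselves. Among 28 tested genes of polyunsaturated lipid supply and peroxidation, 12 were higher and 16 lower in CD4 KO, and 8 were higher and 20 lower in CD8 KO. Without CD8 WT replicate 2 the CD8 tally was 12 higher and 15 lower. Scd2, a desaturase that makes monounsaturated fatty acids, was the gene of this list to pass within a cell type, and it rose in both. It stood at 76.2 and 81.6 TPM in CD4 KO against 4.42 and 5.75 TPM in CD4 WT, and at 83.2 and 71.0 TPM in CD8 KO against 4.68 and 4.03 TPM in CD8 WT. The differences were 3.72 ± 0.39 in CD4 (limma, adjusted p = 0.0144) and 3.86 ± 0.39 in CD8 cells (adjusted p = 0.0201), and they passed without CD8 WT replicate 2 (adjusted p = 0.00395 and 0.0178). They missed the threshold without any 1 of the 6 libraries other than CD8 WT, and over all alternatives the adjusted p reached 0.278 in CD4 and 0.618 in CD8 cells.

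In the mean of the CD4 and CD8 differences 5 of the 140 distinct list genes tested passed by limma, with 2 rises and 3 falls. That is 3.57%, beside 4.12% of all tested genes. Ddit4, a stress-induced inhibitor of mTORC1, rose, with 130 and 116 TPM in CD4 KO against 46.1 and 63.9 TPM in CD4 WT, and 43.5 and 62.6 TPM in CD8 KO against 15.98 and 22.9 TPM in CD8 WT (1.28 ± 0.26, adjusted p = 0.0283). Scd2 was the other rise (3.79 ± 0.27, adjusted p = 0.00122). The calls of Ddit4, Eefsec and Prkcb each passed in 9 of 17 alternatives and were lost without any 1 of the 6 libraries other than CD8 WT, Pdss2 passed in 5 of 17, and Scd2 in 16 of 17, missing without CD4 KO replicate 1 (adjusted p = 0.0548).

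The 3 falls were in long genes. Eefsec, the elongation factor that delivers selenocysteine to selenoproteins such as GPX4, stood at 26.8 and 21.2 TPM in CD4 KO against 87.8 and 64.2 TPM in CD4 WT, and at 18.6 and 22.4 TPM in CD8 KO against 68.8 and 50.7 TPM in CD8 WT (-1.55 ± 0.26, limma, adjusted p = 0.0165). Prkcb, a protein kinase C reported to phosphorylate ACSL4, had 8.32 and 9.34 TPM in CD4 KO against 53.6 and 43.4 TPM in CD4 WT, and 8.70 and 13.6 TPM in CD8 KO against 55.4 and 31.0 TPM in CD8 WT (-2.08 ± 0.31, limma, adjusted p = 0.0118). Pdss2, a subunit of the enzyme that makes the coenzyme Q side chain, fell by 2.35 ± 0.56 (limma, adjusted p = 0.0486) and missed the threshold without CD8 WT replicate 2 (adjusted p = 0.0602).

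Their genomic spans are 189 kb for Eefsec, 345 kb for Prkcb and 243 kb for Pdss2. With the span trend removed the differences were -0.51, -0.75 and -1.18, and none of these 3 passed (adjusted p = 0.366, 0.272 and 0.304). Ddit4, which spans 2.10 kb, had 1.03 and did not pass either (adjusted p = 0.0860), while Scd2 passed (3.72, adjusted p = 0.00119).

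None of the 31 tested genes of glutathione use and precursor supply passed in CD4 cells, CD8 cells or their mean (limma, 2, 4 and 4 at an unadjusted p under 0.05), with 17 higher and 14 lower in CD4 KO and 16 higher and 15 lower in CD8 KO. Gpx3, the secreted peroxidase, had the largest positive differences of the list in both cell types among genes averaging at least 5 TPM, at 6.51 and 11.4 TPM in CD4 KO against 0.583 and 1.54 TPM in CD4 WT, and 10.2 and 13.8 TPM in CD8 KO against 0.113 and 4.58 TPM in CD8 WT. Gsr, the reductase that recycles oxidised glutathione, stood at 21.7 and 22.8 TPM in CD8 KO against 53.8 and 88.3 TPM in CD8 WT (-1.59 ± 0.46, limma, adjusted p = 0.188). Mgst3, a microsomal glutathione transferase, stood at 1.79 and 3.19 TPM in CD4 KO against 6.25 and 6.37 TPM in CD4 WT. In CD4 cells Gsr stood at 14.3 and 32.1 TPM in KO against 24.6 and 19.2 TPM in WT, and the groups overlapped.

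Of 23 tested genes of coenzyme Q and tetrahydrobiopterin, 10 were higher and 13 lower in CD4 KO and 9 higher and 14 lower in CD8 KO, and 0 passed within a cell type (limma, 1 in CD4 and 5 in CD8 cells at an unadjusted p under 0.05). Gch1, the first enzyme of tetrahydrobiopterin synthesis, stood at 3.55 and 1.01 TPM in CD8 KO against 12.1 and 52.2 TPM in CD8 WT (limma, adjusted p = 0.134). Its highest value was that of CD8 WT replicate 2, the library that stood apart. Coq10b, a coenzyme Q binding protein, stood at 9.55 and 5.89 TPM in CD4 KO against 2.81 and 5.24 TPM in CD4 WT. Of 18 selenoprotein genes, 5 were higher and 13 lower in CD4 KO and 10 higher and 8 lower in CD8 KO, with 0 past the test within a cell type (limma, 1 in CD4 and 3 in CD8 cells at an unadjusted p under 0.05). The selenoprotein gene listed as Sepw1 stood at 1195 and 1197 TPM in CD8 KO against 879 and 409 TPM in CD8 WT, and its CD4 groups overlapped. That listed as 2810407C02Rik stood at 85.5 and 106 TPM in CD4 KO against 48.0 and 73.7 TPM in CD4 WT.

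Of 24 tested NFE2L2 partners and targets 14 were higher and 10 lower in CD4 KO, and 9 were higher and 15 lower in CD8 KO, with 0 past the test (limma, 3 in CD4 and 6 in CD8 cells at an unadjusted p under 0.05). Txnrd1, the thioredoxin reductase and itself a selenoprotein, stood at 23.1 and 21.3 TPM in CD4 KO against 49.3 and 49.2 TPM in CD4 WT, and at 22.1 and 24.2 TPM in CD8 KO against 36.8 and 50.4 TPM in CD8 WT. Its groups did not overlap in either cell type, as for 58.1% of all tested genes in CD4 and 42.1% in CD8 cells. Txnrd1 was named for the largest CD4 fall of its list. It did not pass (limma, adjusted p = 0.1575 in CD4, 0.293 in CD8 and 0.0554 for their mean). Nqo1, a quinone reductase, stood at 7.76 and 10.4 TPM in CD4 KO against 5.43 and 5.34 TPM in CD4 WT, and at 19.4 and 16.03 TPM in CD8 KO against 4.61 and 7.19 TPM in CD8 WT.

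Several other genes of these lists were highest in CD8 WT replicate 2, as Slc7a11 was. Atf3, Osgin1 and Acsl1 were named for the largest CD8 falls of their lists, which that library helps to set. The 5 TPM filter for named genes also counts that library. Their height there is thus partly built into the choice, and the share of all genes highest there is not given. Hmox1, the inducible haem oxygenase, stood there at 406 TPM against 9.54 to 107 TPM in the other 7 libraries, and Atf3, a stress-induced transcription factor, at 346 TPM against 0.364 to 14.4 TPM. Osgin1, an oxidative stress gene, stood at 158 TPM there against 0 to 15.9 TPM. Acsl1, a long-chain acyl-CoA synthetase, stood at 79.4 TPM there against 2.94 to 13.4 TPM. Cdkn1a, the cell cycle inhibitor p21, stood at 141 TPM there against 3.92 to 58.4 TPM. In CD4 cells Cdkn1a had 45.1 and 30.4 TPM in KO against 10.2 and 3.92 TPM in WT (limma, adjusted p = 0.308). Hmox1 had 75.7 and 59.4 TPM in CD4 KO against 9.54 and 33.9 TPM in CD4 WT (limma, adjusted p = 0.550). Atf3 and Acsl1 were lower in CD4 KO, and the CD4 groups of Osgin1 overlapped. In CD8 KO Cdkn1a had 39.5 and 58.4 TPM, against 6.65 TPM in CD8 WT replicate 1. Of 22 tested regulators of ferroptosis, 14 were higher and 8 lower in CD4 KO and 13 higher and 9 lower in CD8 KO, with 0 past the test within a cell type (limma, 5 in CD4 and 6 in CD8 cells at an unadjusted p under 0.05).

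The CD8 medians of the NFE2L2 and selenoprotein lists turned sign without CD8 WT replicate 2. Without it, the NFE2L2 list had 15 genes higher and 9 lower in CD8 KO, and its median was 0.25 instead of -0.29. The selenoprotein list had 7 higher and 11 lower, with a median of -0.17 instead of 0.14. The coenzyme Q list had 8 higher and 15 lower, the glutathione list 17 higher and 14 lower and the regulators 15 higher and 7 lower, with medians of -0.30, 0.10 and 0.49. The median of all tested genes was -0.07 without that library.

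For the mean of the CD4 and CD8 differences, the list medians were also taken without CD8 WT replicate 2. They were 0.04 for glutathione use, -0.30 for coenzyme Q and -0.23 for polyunsaturated lipids. The selenoprotein list had -0.20, the NFE2L2 list 0.41 and the regulators 0.16, beside -0.13 over all tested genes. That fit leaves 1 CD8 WT library, so its calls in the lists are not given.

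**Figure D4:**
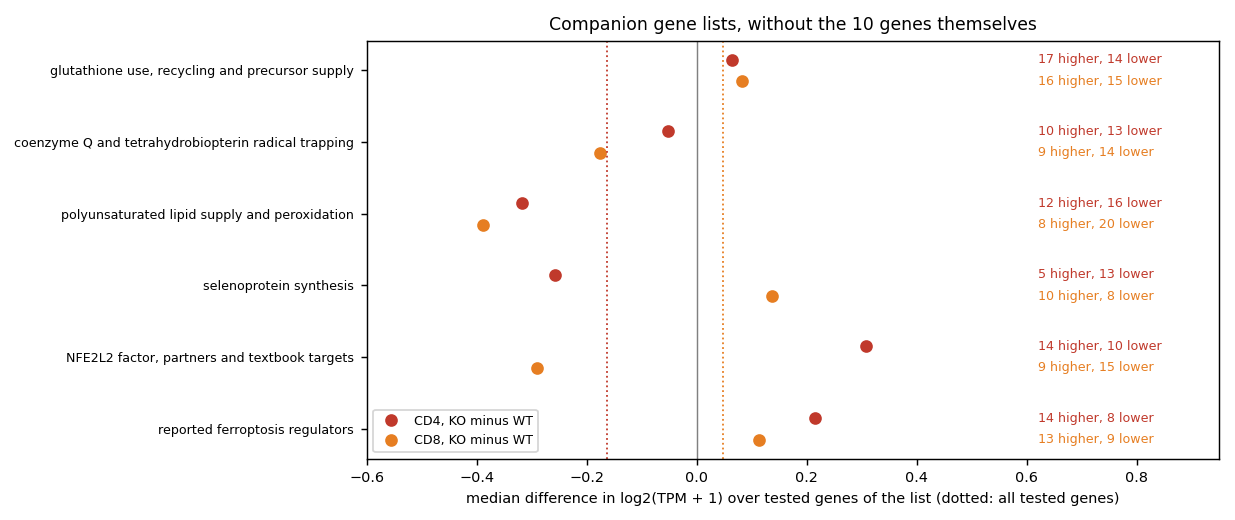
Median KO minus WT difference in log2(TPM + 1) over the tested genes of each list, for CD4 (red) and CD8 cells (orange), with the dotted lines at the medians of all tested genes, -0.16 and 0.05. All 8 libraries are used; the list of polyunsaturated lipid genes has the lowest medians, -0.32 in CD4 and -0.39 in CD8 cells, and its CD8 median is -0.02 without CD8 WT replicate 2.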

How the data were processed

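Messenger RNA of sorted naive T cells was sequenced in 8 libraries, 2 for each of 4 groups, with replicate numbers from the titles. Per the submitters' processing notes HISAT and mm10 were used; no source used here names the gene quantifier. The authors deposited TPM per gene (with an equal total in each library), FPKM per gene, and coverage, a mean depth per base, per the file headers. No read counts were used, so no counting interval is given. Depth was estimated by dividing coverage by FPKM; 84.7% to 86.4% of genes gave a ratio within 1% of their library's own value.

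TPM was summed per symbol. Genes averaging at least 1 TPM (11786) were fitted as log2(TPM + 1) with limma 3.58.1 (R 4.3.3), using an intensity trend and a spread pooled over the 4 groups (4 residual degrees of freedom, prior 5.68), with Benjamini-Hochberg adjustment over all of them and a threshold of 0.05. The scale understates differences of weak genes.

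The genes, the 6 lists and the tests were chosen with earlier results of these data known. Named list genes were those past the test, and otherwise those with the largest rise or fall per cell type among genes averaging at least 5 TPM; Trappc1, the 3 genes most like Gpx4 and leading markers were added, while Cd4, Cd8a and Emg1 were added for checks. Of the 165 distinct list genes, 9 were found under older symbols. Alternatives were other pseudocounts (0.1 and 5), other filters, scaling, weights, span correction, FPKM, fewer groups, a replicate block and leaving out each library. List counts without CD8 WT replicate 2 were added after seeing the data. Same-numbered libraries did not deviate together (correlations of -0.036 to 0.094).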

Additional observations from a re-analysis of the deposited data

How the results depend on the processing

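Over the 9 genes, 5 comparisons and 17 or 18 alternatives, 758 of 792 values kept their direction and their side of the threshold, 11 newly passed and 23 turned sign, none of these 23 past the test. In CD4 cells 162 of 162 kept both, with none past the threshold, but their sizes moved. Leaving out 1 library, CD4 values ran from -1.12 to -0.18 for Gclm, -1.50 to -0.35 for Gclc, -1.37 to -0.56 for Gss, -1.14 to -0.54 for Acsl4, -1.47 to -0.77 for Dhodh, -0.85 to -0.51 for Lpcat3, 0.20 to 0.82 for Slc3a2, 0.56 to 0.90 for Gpx4 and 0.96 to 1.32 for Slc7a11. The number of genes called moved widely. With no filter on low values it was 0 in CD4 cells, 0 in CD8 cells, 26 for their mean and 1 between WT cell types (limma throughout). Median-of-ratios scaling gave 141 in CD4 cells and 755 for the mean, and fitting only the groups compared gave 243 in CD4, 0 in CD8 and 0 between WT cell types. Library weights gave 1260 in CD4, 0 in CD8 and 15 between WT cell types, and removing the span trend gave 18 in CD4, 21 in CD8 and 74 for the mean. With a replicate block 29 genes were called in CD4 against 84 without it. The calls were 26 in CD8, 399 for the mean, 0 for the CD8 minus CD4 effect and 26 between WT cell types. None of the 9 genes was called. Same-numbered libraries did not deviate together, but with 2 libraries per group this cannot tell whether they shared a mouse or a batch. Leaving out 1 library at a time, the calls ran from 0 to 768 in CD4, 0 to 1842 in CD8, 0 to 1798 for the mean, 0 to 1148 for the difference between effects and 0 to 1629 between WT cell types. The calls among the 9 genes ran from 0 to 2 in CD8, 0 to 2 for the mean, 0 to 1 for the difference between effects and 0 to 2 between WT cell types, each highest without CD8 WT replicate 1. Median-of-ratios scaling, library weights and FPKM each gave 1 call for the mean, Gpx4.

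The signs that turned were as follows. For the mean of CD4 and CD8, Slc7a11 was 0.36 with a pseudocount of 0.1 and 0.12 with the span trend removed, where Slc3a2 was -0.0078 and Lpcat3 0.11. Leaving out 1 library, the mean ran from -1.64 to 0.74 for Slc7a11 and from -0.36 to 0.42 for Slc3a2. In CD8 cells Acsl4 was 0.085 with the span trend removed. Leaving out 1 library there, values ran from -4.42 to 0.34 for Slc7a11, from -1.22 to 0.33 for Slc3a2, from -0.53 to 0.035 for Gclc, from -0.093 to 0.39 for Dhodh and from -0.68 to 0.029 for Acsl4. The Gpx4 difference between effects ran from -0.017 to 0.78. Between WT cell types median-of-ratios scaling gave 0.14 for Gpx4, 0.093 for Gclc, 0.041 for Gss and 0.14 for Acsl4, and span removal gave 0.034 for Acsl4. Leaving out 1 library there, Gpx4 ran from -0.56 to 0.24 and Acsl4 from -0.51 to 0.20. The cause of these turns was not tested. Where a library was left out, its lone partner is assumed to vary like the other groups. TPM keeps no read counts, so counting error is unknown, and the low coverage of Slc7a11 and Aifm2 limits what can be read from them.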
